A study of Homo sapiens and Mus musculus with 12 samples.

Results

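The transcripts of perforin and the granzymes, the killing proteins of natural killer (NK) cells, were examined in sorted mouse NK cells that lack Ehmt2 and in a human NK cell line treated with an EHMT2 inhibitor. Members were taken by gene symbol. They were 4 of the 22021 mouse genes listed, Prf1, Gzma, Gzmb and Gzmm, and 6 of the 18304 human genes, PRF1, GZMA, GZMB, GZMH, GZMK and GZMM. All 10 passed the filter on low counts. EHMT2 (G9a) is a methyltransferase that places the repressive mark H3K9me2 on histone H3, and the comparisons ask whether these transcripts differ once it is deleted or inhibited.

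RNA-seq had been run on CD3-NK1.1+ NK cells sorted from the spleens of C57BL/6J mice of 8 to 12 weeks. WT mice carried Ehmt2 alleles flanked by loxP sites (Ehmt2 flox/flox), with no Cre. KO mice carried the same alleles together with Ncr1-iCre, in which the gene of the NK receptor NKp46 drives Cre recombinase, so that deletion follows the activity of Ncr1. Human cells were NK92MI, a single established NK lymphoma line engineered to make its own IL-2, given BIX-01294 (BIX), a small-molecule inhibitor of EHMT2, or its solvent DMSO. In the functional tests of this line the study used 0.25 µM BIX-01294 for 5 days, but the text on sequencing gives no dose or time. Each of the 4 groups had 3 libraries, and the labels do not say whether these came from separate mice or cultures, so p-values may measure technical spread only. The genotype label of the KO libraries reads Ezh2-KO, whereas their titles and the study name Ehmt2.

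Killer cells store perforin and granzymes in lytic granules and release them at the contact with a target cell. Perforin forms pores in the target membrane, and granzymes, a family of serine proteases, enter through them. Granzyme A (GZMA) and granzyme K (GZMK) are tryptases encoded next to each other. Granzyme B (GZMB) cuts after aspartate and activates caspases. Granzyme H (GZMH), which mice lack, is a close relative of granzyme B in the same gene cluster, and granzyme M (GZMM) cuts after methionine and related residues. Resting mouse NK cells are known to hold Prf1 and Gzmb mRNA in large excess over the protein, so transcript and protein need not move together.

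The promoter sequences of 4 human members are shown because these transcripts were all higher under BIX and have different promoters. The promoter of GZMK, also higher under BIX, is not shown, so the motif matches below cover a chosen part of the members. Each is the 250 bases before the RefSeq transcription start (GRCh38.p14), written 5′ to 3′ on the strand of the gene, for PRF1 at chr10:70602742-70602991 (minus), GZMA at chr5:55102396-55102645 (plus), GZMB at chr14:24634191-24634440 (minus) and GZMH at chr14:24609686-24609935 (minus). Capitals mark every exact match, on either strand, to AP-1 (TGAGTCA or TGACTCA), RUNX (TGTGGT or ACCACA), a T-box core (TCACAC or GTGTGA) and ETS (AGGAAG or CTTCCT) letters, which do not overlap one another here.
PRF1: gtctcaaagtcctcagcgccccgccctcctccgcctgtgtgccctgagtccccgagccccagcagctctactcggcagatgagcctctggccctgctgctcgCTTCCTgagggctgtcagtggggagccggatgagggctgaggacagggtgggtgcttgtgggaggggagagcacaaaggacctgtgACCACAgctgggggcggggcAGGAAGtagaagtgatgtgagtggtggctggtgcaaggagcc
GZMA: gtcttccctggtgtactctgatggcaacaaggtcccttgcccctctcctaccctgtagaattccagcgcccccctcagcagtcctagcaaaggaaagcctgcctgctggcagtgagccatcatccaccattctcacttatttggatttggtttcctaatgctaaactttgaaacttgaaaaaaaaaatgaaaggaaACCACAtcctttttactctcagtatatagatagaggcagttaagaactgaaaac
GZMB: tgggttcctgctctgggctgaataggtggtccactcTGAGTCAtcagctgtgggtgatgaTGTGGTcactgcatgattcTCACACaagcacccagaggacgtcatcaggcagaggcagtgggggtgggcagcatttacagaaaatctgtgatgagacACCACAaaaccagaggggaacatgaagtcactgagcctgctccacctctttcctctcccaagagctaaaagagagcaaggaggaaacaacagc
GZMH: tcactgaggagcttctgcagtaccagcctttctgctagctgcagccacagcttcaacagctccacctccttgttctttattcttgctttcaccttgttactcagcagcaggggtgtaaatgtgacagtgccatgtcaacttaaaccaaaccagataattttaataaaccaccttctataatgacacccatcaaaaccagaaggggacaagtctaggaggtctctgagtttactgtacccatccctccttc
RUNX letters were found in PRF1 (62 bases before the start), GZMA (54 bases) and GZMB (190 and 93 bases), and in 10.98% of all 35116 RefSeq promoters over the same window. AP-1 letters stood only in GZMB among the 4, 214 bases before the start, and in 4.20% of all promoters. GZMB alone of the 4 also held the T-box core, at 171 bases, against 9.90% of all promoters. ETS letters occurred at 148 and 42 bases in PRF1 and in 28.7% of all promoters, and the GZMH window held none of the 4 motifs. These matches describe letters and not bound sites.

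GZMB and GZMH are similar enough to share sequencing reads. Their coding sequences (744 and 741 bases, transcripts GZMB-201 and GZMH-201 of GENCODE) were identical at 79.2% of 745 aligned positions. The longest stretch common to both was 106 bases, coding bases 252 to 357 in either gene, in exons 3 and 4, and with the intron between them it lies at chr14:24632101-24632411 in GZMB and chr14:24607389-24607699 in GZMH (GRCh38, minus strand). It is shown because a read that lies within it cannot be assigned to one gene.
GZMB and GZMH: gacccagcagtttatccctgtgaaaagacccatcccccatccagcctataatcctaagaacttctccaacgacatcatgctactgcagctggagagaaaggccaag
Of all 50-base words of the longest annotated transcript, 6.52% of those of GZMB and 6.43% of those of GZMH also occurred in the other gene, and at 100 bases the shares were 0.850% and 0.836%. No 50-base word of the other 8 members was found in a transcript of another gene. How such shared reads were counted is not given in the sources used here. The levels of GZMB and GZMH are uncertain to that extent, and the sum of their counts is given below. That sum would not recover reads counted for neither gene.

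Depth was 25891680 to 37438868 counts a library in mouse and 16579469 to 17165446 in human. Levels are CPM (counts scaled to a common library size, with TMM normalization), and changes are log2 fold changes with their standard errors (SE) from edgeR's quasi-likelihood test with Benjamini-Hochberg adjustment over all genes tested. To be called, a gene needed an adjusted p under 0.01 and a change over 0.5 on the log2 scale. A second rule used an adjusted p under 0.05 with no fold threshold. Ehmt2 itself lay between 275 and 285 CPM in WT and between 137 and 171 CPM in KO NK cells (log2 fold change −0.91, adjusted p = 0.0162), and EHMT2 between 54.3 and 61.6 CPM in DMSO and between 35.8 and 40.4 CPM in BIX cells (log2 fold change −0.58, adjusted p = 1.01e-04).

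The mouse libraries differed in more than the members. WT replicate 2 had the fewest counts. The summed level of 11 NK surface receptor genes was 3336, 5693 and 3390 CPM in WT replicates 1, 2 and 3 and 5923, 7304 and 7514 CPM in KO replicates 1, 2 and 3. All 11 had a positive log2 fold change (51.5% of all genes tested), and 6 passed the second rule. By that rule 4.44% of all genes tested were higher and 7.43% lower, for these and the following markers. Markers of most other blood cells were lower in KO. Summed levels in WT and KO were 534 to 1547 and 90.1 to 497 CPM for 8 B cell markers (0 of 8 passed), 2529 to 6447 and 1364 to 2471 CPM for 9 macrophage and monocyte markers (5 of 9 lower), 66.6 to 718 and 2.05 to 76.0 CPM for 9 neutrophil markers (3 of 8 tested lower), and 211 to 351 and 95.1 to 128 CPM for 7 erythroid markers (7 of 7 lower). T cell markers summed to 155 to 260 and 97.5 to 219 CPM, with 2 of the 8 higher and 6 lower in KO. The 1 that passed, Cd3g, was higher (23.0 to 34.7 CPM, edgeR adjusted p = 0.0452). Mast cell and basophil markers summed to 117 to 193 and 222 to 251 CPM, but 4 of the 7 were lower in KO (median log2 fold change −0.30) and 1 passed, Cma1, which went from 95.7 to 189 CPM. No marker of these lists was at 0 throughout. In bulk RNA, fewer cells of a type and less RNA per cell cannot be told apart. The part of the non-NK markers in the mouse results was not tested. In NK92MI cells the T cell list was carried by CD3E (493 and 552 CPM in DMSO and BIX, adjusted p = 0.0602), with CD4 at 8 counts in all 6 libraries, and the B cell and macrophage lists, 4 listed genes each, summed to at most 26.3 and 10.7 CPM.

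Perforin and 3 granzyme transcripts had higher mean CPM in KO NK cells, although scaled to NK surface genes Prf1 was at −0.0059 (log2, SE 0.21) and Gzmb at −0.33 (SE 0.23), and by the main rule edgeR called no mouse gene. Prf1 was 1.65 times and Gzma 1.71 times as abundant in KO as in WT, Gzmm 2.09 times and Gzmb 1.32 times. Gzma and Gzmm passed the second rule, Prf1 narrowly missed it and Gzmb missed it. Relative to NK surface transcripts, the Prf1 and Gzma levels of WT and KO overlapped.

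Prf1, which encodes perforin (GRCm38 chr10:61297833-61304680, plus strand), was at 560, 903 and 625 CPM in WT replicates 1, 2 and 3 and at 941, 1298 and 1206 CPM in KO replicates 1, 2 and 3. The lowest KO library stood just above WT replicate 2, so the groups did not overlap, but WT replicate 2 was closer to KO replicate 1 than to either other WT library. Its log2 fold change was 0.72 (SE 0.20, edgeR adjusted p = 0.0554). DESeq2, the tool of the study, gave an adjusted p of 0.00263 for the same counts.

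Gzma, which encodes the tryptase granzyme A (chr13:113093825-113100981, minus strand), was the most abundant member, at 1162, 1839 and 1249 CPM in WT and 2647, 2347 and 2260 CPM in KO. WT replicate 2 was again the highest WT library, and every KO library exceeded it. The log2 fold change was 0.77 (SE 0.19, edgeR adjusted p = 0.0451), which met the second rule.

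Gzmb, the gene of the caspase-activating granzyme B (chr14:56258838-56262260, minus strand), showed the smallest difference. It was counted at 290, 388 and 313 CPM in WT and 483, 458 and 367 CPM in KO, and KO replicate 3 lay below WT replicate 2. With a log2 fold change of 0.40 (SE 0.15, edgeR adjusted p = 0.0962) it passed neither rule.

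Gzmm, the gene of granzyme M (chr10:79689020-79695261, plus strand), was the scarcest member and had the largest fold difference. Its CPM values of 8.79, 13.8 and 7.63 in WT and 20.5, 21.5 and 21.1 in KO rest on 284 to 800 counts a library. The KO libraries varied by 2.55% (coefficient of variation) and the WT libraries by 32.8%, with WT replicate 2 again on top. The log2 fold change of 1.07 (SE 0.21, edgeR adjusted p = 0.0341) ranked 170th of 13189 genes tested and met the second rule.

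**Figure D1:**
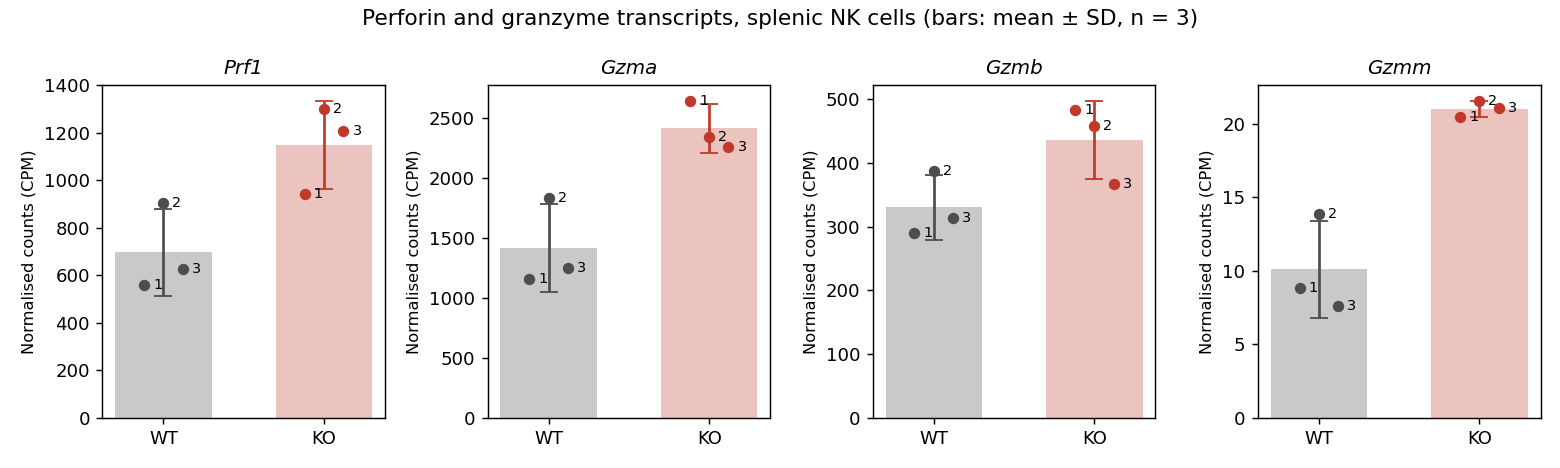
Normalised counts (CPM) of the 4 mouse members in each library of splenic NK cells. Points are libraries with their replicate numbers, and bars are means with SD (n = 3). WT replicate 2 is the highest WT point in all 4 panels, and only Gzmb has a KO point (replicate 3, 367 CPM) below it.

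By the second rule 2 of the 4 members were higher in KO and none lower, where 4.44% of the 13189 genes tested were higher and 7.43% lower (11.9% either way). All 4 had a positive log2 fold change, as did 51.5% of genes. In 3 of the 4 members every KO library exceeded every WT library, as in 19.1% of the genes tested, and in none was every KO library below every WT library (19.3%). With DESeq2 at the main rule, Prf1, Gzma and Gzmm were called and Gzmb was not (adjusted p = 0.0459), against 3.03% of the same genes called higher. EdgeR called 0 genes (0%) at the main rule, where the smallest adjusted p was 0.0116, while an unadjusted p under 0.05 took in 15.8% of genes as higher, all 4 members among them. The 4 members together took 0.202%, 0.313% and 0.219% of all counts in WT and 0.414%, 0.409% and 0.386% in KO (two-sided exact permutation p = 0.1, the lowest possible with 3 libraries a group, here and below). Without WT replicate 2 the log2 fold changes of Prf1, Gzma, Gzmb and Gzmm were 0.96, 1.01, 0.54 and 1.36, with edgeR adjusted p of 0.00642, 0.00337, 0.0254 and 0.00172, and 3 of the 4 were called. Leaving out any other library called none.

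Set against the NK surface genes of the same library, the mouse differences were smaller. The ratio of Prf1 to the summed NK surface level was 0.168, 0.159 and 0.184 in WT and 0.159, 0.178 and 0.161 in KO, so the groups overlapped (exact permutation test, p = 0.7). For Gzma the ratio was 0.348, 0.323 and 0.368 in WT and 0.447, 0.321 and 0.301 in KO (exact p = 1). KO replicate 1 was highest and the other KO replicates lowest, with no separation by genotype. Gzmb was lower on this scale, with means of 0.0824 in WT and 0.0644 in KO, but overlapped (exact p = 0.2). Gzmm stayed higher in every KO library, at a mean of 0.00307 against 0.00244 (exact p = 0.1, the smallest possible). Scaling the whole edgeR fit to these genes moved the median log2 fold change of all genes to −0.76. It left Prf1 at −0.0059 and Gzma at 0.067, Gzmb at −0.33 and Gzmm at 0.36, with adjusted p of 0.980, 0.776, 0.208 and 0.217. Relative to that shifted median the members were at 0.75, 0.83, 0.43 and 1.12. The NK surface genes are themselves higher per library in KO, so this scale compares the members with those genes only. Il2rb, at a mean of 1607 CPM in WT and 2678 CPM in KO, was the largest single part of their sum. The scaled fit weighs each of these genes equally on the log scale. The study reported less H3K9me2 at Il2rb in KO and higher Il2rb mRNA by RT-qPCR.

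The mouse granzyme genes Gzmd, Gzme, Gzmf, Gzmg and Gzmn had no count in any library. A count of 0 allows up to 0.116 CPM in the smallest library. Gzmk, the neighbour of Gzma, was at 3.55 ± 0.238 CPM (SD, n = 3) in WT and 5.45 ± 0.556 CPM in KO (log2 fold change 0.62, edgeR adjusted p = 0.0553). Gzmc was at 1.71 ± 0.497 and 2.57 ± 0.621 CPM (log2 fold change 0.58, edgeR adjusted p = 0.204). Neither passed a rule, and both had the direction of the 4 members.

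In NK92MI cells 5 of the 6 members rose under BIX and passed both rules, and GZMM passed neither. GZMA, GZMB and GZMK were 1.88, 1.85 and 1.81 times as abundant in BIX as in DMSO cells, GZMH 1.61 times and PRF1 1.48 times, while GZMM was at 1.18 times. Of the 12727 genes tested, 6.24% were called higher (11.7% either way), and DESeq2 called the same 5 members and 6.2% of genes higher. The summed NK surface level did not separate the groups here, at 2087 to 2212 CPM in DMSO and 2094 to 2229 CPM in BIX.

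PRF1 (GRCh38 chr10:70597348-70602759, minus strand), the gene of the pore-forming protein, was at 549, 592 and 530 CPM in the DMSO libraries and 814, 750 and 911 CPM in BIX replicates 1, 2 and 3. The lowest BIX library exceeded the highest DMSO library by 157 CPM. Its log2 fold change of 0.57 (SE 0.08, edgeR adjusted p = 6.37e-05) was near the fold threshold, and without BIX replicate 3 it was 0.49 and no longer called. The annotated PRF1 interval touches that of PALD1, which was at 0.215 CPM in DMSO and 0.298 CPM in BIX on average.

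GZMA (chr5:55102646-55110252, plus strand), the tryptase gene, rose from 1685, 1751 and 1737 CPM in DMSO to 3346, 2808 and 3592 CPM in BIX. The DMSO libraries varied by 2.03% (coefficient of variation), and every BIX library was at least 1057 CPM above the highest of them. This was the largest change among the members (log2 fold change 0.91, SE 0.08, edgeR adjusted p = 1.51e-06). GZMK (chr5:55024256-55034570, plus strand), the related tryptase whose gene lies 68076 bases away, rose from 60.6, 69.4 and 64.1 CPM to 131, 96.3 and 124 CPM. BIX replicate 2 was lowest and still above every DMSO library (log2 fold change 0.85, SE 0.10, edgeR adjusted p = 2.40e-05). The ratio of GZMK to GZMA was 0.0360 to 0.0396 in DMSO and 0.0343 to 0.0391 in BIX and overlapped (exact permutation test, p = 0.5).

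GZMB (chr14:24630954-24634267, minus strand), the caspase-activating protease, rose from 638, 715 and 658 CPM to 1261, 1031 and 1432 CPM (log2 fold change 0.89, SE 0.10, edgeR adjusted p = 1.13e-05). GZMH (chr14:24606480-24609699, minus strand), its close relative, rose from 222, 259 and 218 CPM to 366, 313 and 445 CPM (log2 fold change 0.68, SE 0.11, edgeR adjusted p = 2.47e-04). In both genes all BIX libraries were above all DMSO libraries. The ratio of GZMH to GZMB was 0.348, 0.363 and 0.332 in DMSO and 0.291, 0.303 and 0.310 in BIX, so that GZMH took a smaller part of the pair in every BIX library (exact permutation test, p = 0.1, the smallest possible). Reads from the stretch common to both genes could alter this ratio, and their part in it was not tested. With the counts of both genes added up, the log2 fold change was 0.84 (SE 0.10, edgeR adjusted p = 2.14e-05).

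GZMM (chr19:544034-549924, plus strand), the gene of granzyme M, was at 94.5, 114 and 96.1 CPM in DMSO and 116, 101 and 142 CPM in BIX. BIX replicate 2 lay below the highest DMSO library, and the difference of 0.24 on the log2 scale (SE 0.11, edgeR adjusted p = 0.105) did not exceed the spread between libraries. Without BIX replicate 2 it was 0.35 and passed the second rule (edgeR adjusted p = 0.00333), and without BIX replicate 3 it was 0.097.

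**Figure D2:**
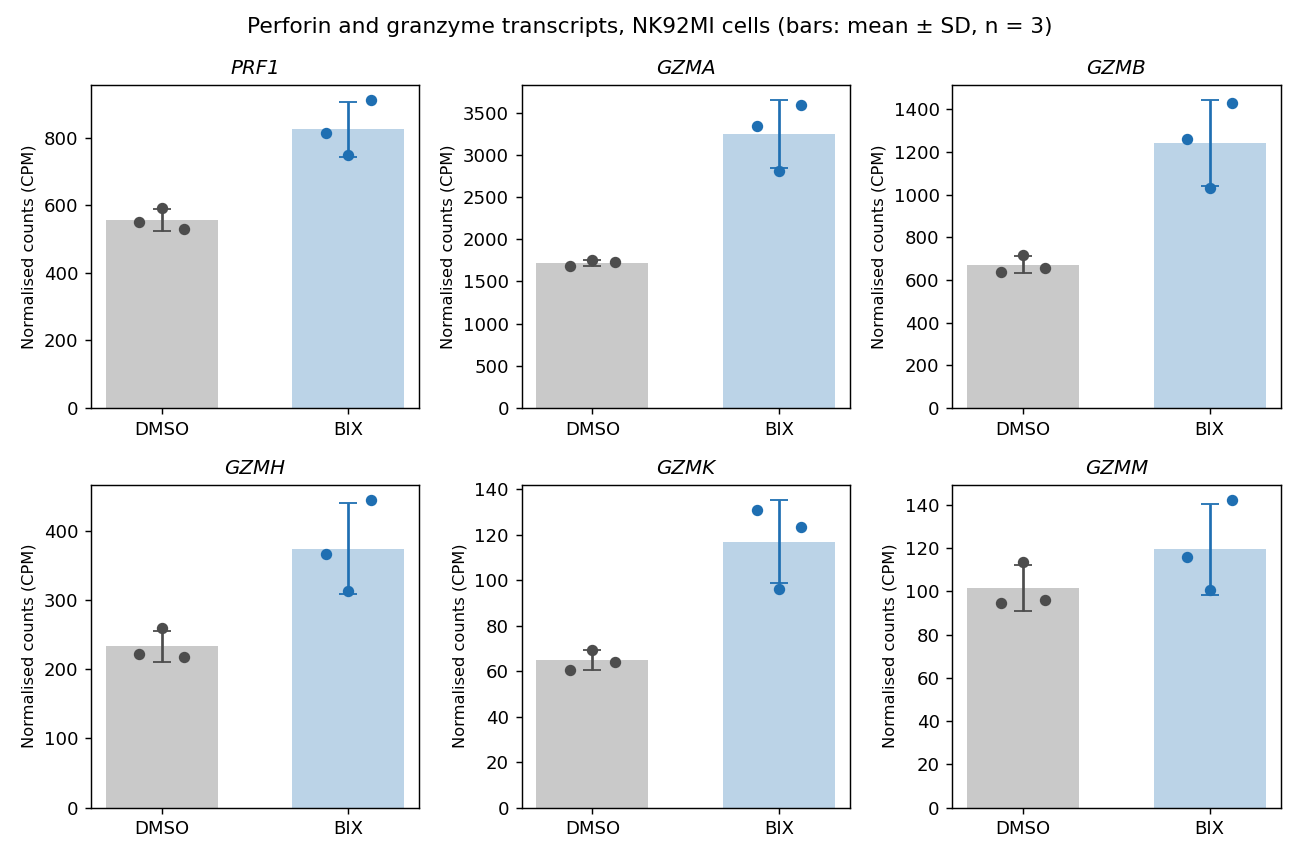
Normalised counts (CPM) of the 6 human members in each NK92MI library. Points are libraries, and bars are means with SD (n = 3). In each panel except that of GZMM all BIX points lie above all DMSO points, and the BIX points spread more widely than the DMSO points.

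Groups did not overlap in 5 of the 6 human members, against 24.1% of genes tested in which every BIX library exceeded every DMSO library. Every BIX library was below every DMSO library in none of the members and in 23.9% of genes. All 6 members had a positive log2 fold change, as did 49% of genes, and by the second rule 18.4% of genes were higher and 18.4% lower (36.9% either way). At an unadjusted p under 0.05, 22.9% were higher, all 6 members among them. The order of libraries was much the same for all members. BIX replicate 2 was the lowest BIX library for all 6 genes, BIX replicate 3 the highest for 5 of 6, and a single DMSO library, CON-2, the highest for all 6. The 6 members took 0.328%, 0.349% and 0.332% of counts in DMSO and 0.598%, 0.512% and 0.657% in BIX (exact permutation test, p = 0.1, the smallest possible). Relative to the summed NK surface genes, PRF1 went from a mean of 0.261 to 0.380, GZMA from 0.792 to 0.832 in DMSO to 1.34 to 1.61 in BIX, GZMB from 0.314 to 0.572, GZMH from 0.109 to 0.172 and GZMK from 0.0303 to 0.0539, and the groups stayed apart in all 5 (exact permutation p = 0.1 each). With the whole fit scaled to these genes, which moved the median of all genes to −0.12, 4 of the members were still called and PRF1, at 0.46, fell under the fold threshold (edgeR adjusted p = 5.08e-05).

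**Figure D3:**
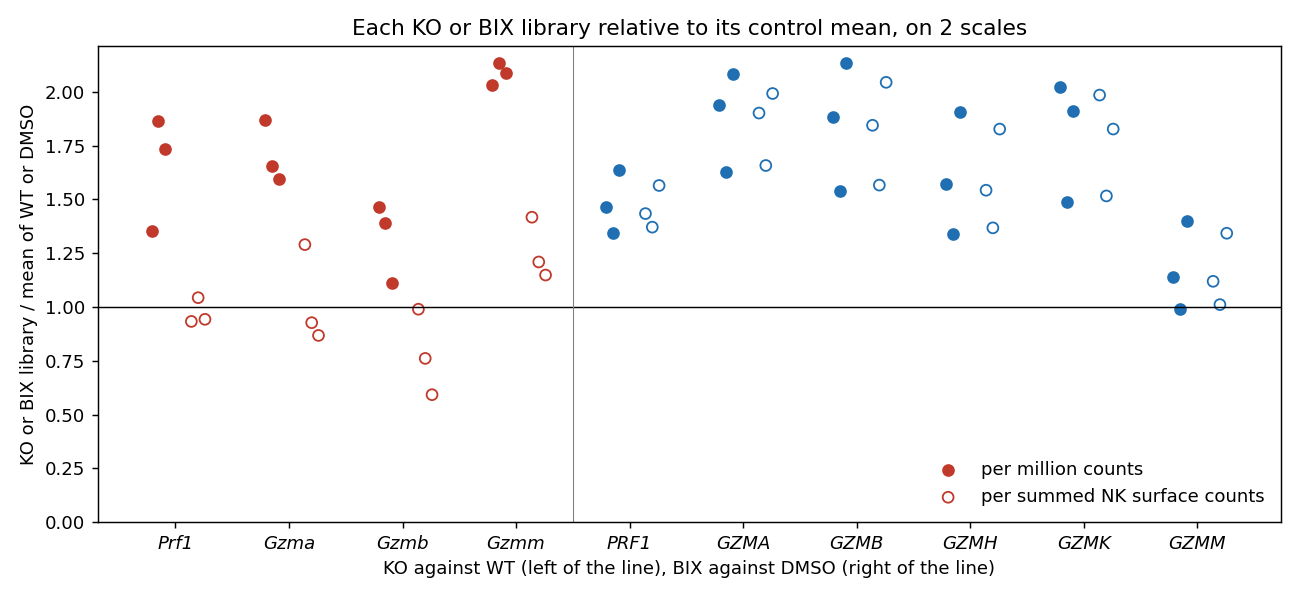
Each KO or BIX library divided by the mean of its control group, in CPM (filled points) and per summed NK surface counts (open points). A value of 1 means no difference from WT or DMSO. Open points of Prf1, Gzma and Gzmb scatter around or below 1 in KO, while the open points of the human members stay near the filled ones.

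The change of each ortholog was set side by side across the 2 experiments, which differ in species, cell source and kind of EHMT2 loss. On mean log2 CPM, Prf1 differed by 0.74 in KO and PRF1 by 0.56 in BIX, Gzma by 0.80 and GZMA by 0.91, Gzmb by 0.40 and GZMB by 0.88, and Gzmm by 1.10 and GZMM by 0.23. Granzyme M was thus the member with the largest difference in mouse and the smallest in human, and Gzmb the one with the smallest in mouse. Whether the change of a gene differs between the experiments was not tested, because regrouping the libraries within each experiment asks whether there is a change in either and not whether the changes are equal.

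**Figure D4:**
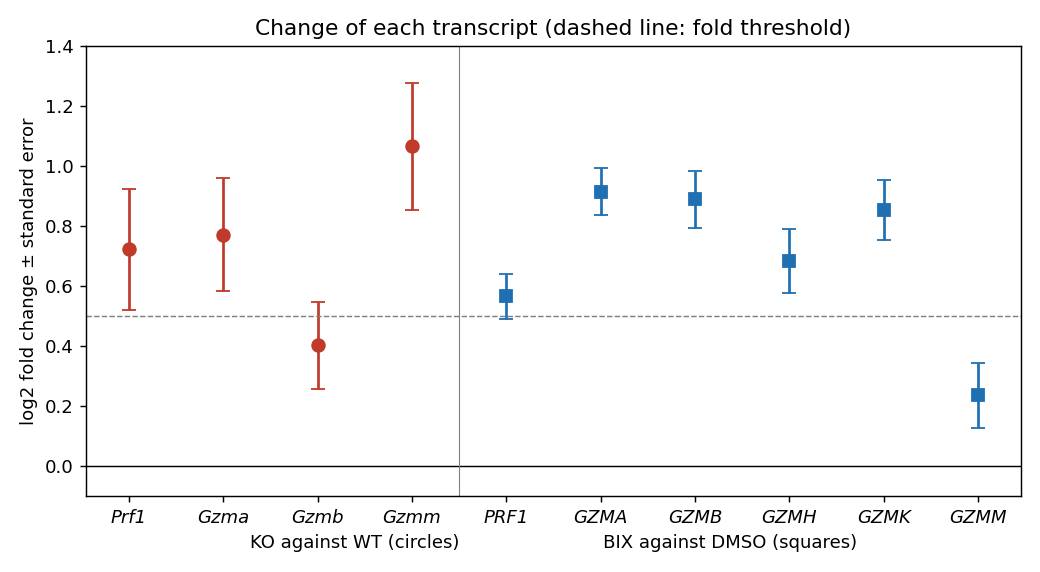
Log2 fold change of each member with its standard error from edgeR (TMM scale), KO against WT (circles) and BIX against DMSO (squares). The dashed line is the fold threshold of 0.5. Values lie between 0.24 (GZMM) and 1.07 (Gzmm), and errors are larger in mouse.

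Abundance was compared between members as CPM per kilobase of annotated exon. In WT NK cells the order was Gzma (1408 CPM per kb, 15th of the 12795 genes tested that had a matched exon length), Prf1 (269), Gzmb (230) and Gzmm (6.85). Prf1 was above Gzmb in all 3 WT libraries, but their ranges overlapped, from 217 to 349 and from 202 to 270 CPM per kb, so that these neighbours did not differ beyond their spread. In KO NK cells the order was unchanged at 2404, 444, 304 and 14.3 CPM per kb, Gzma stood 7th among the same genes, and the Prf1 and Gzmb ranges separated. Gzmm was 33.5 times less abundant than Gzmb in WT and 21.3 times in KO.

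The human order was GZMA, GZMB, GZMH, PRF1, GZMM and GZMK, at 1924, 476, 245, 221, 107 and 41.3 CPM per kb in DMSO and 3626, 882, 394, 328, 126 and 74.6 CPM per kb in BIX. GZMA ranked 2nd of the 12432 genes tested with a matched length in DMSO and 1st in BIX, and GZMB moved from 20th to 7th. By its longest transcript (923 bases in place of 1408 bases of exon) GZMB was at 692 to 775 CPM per kb in DMSO. It was still 2nd among the members, and ranks among all genes were not taken on that length. GZMH and PRF1 overlapped in either group, although GZMH was above PRF1 in 3 of 3 libraries of each, and all other neighbours had separate ranges. Without division by length PRF1 came before GZMH. Granzyme A thus led both systems, whereas granzyme M was the least abundant of the 4 mouse members and stood above GZMK in the human line.

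**Figure D5:**
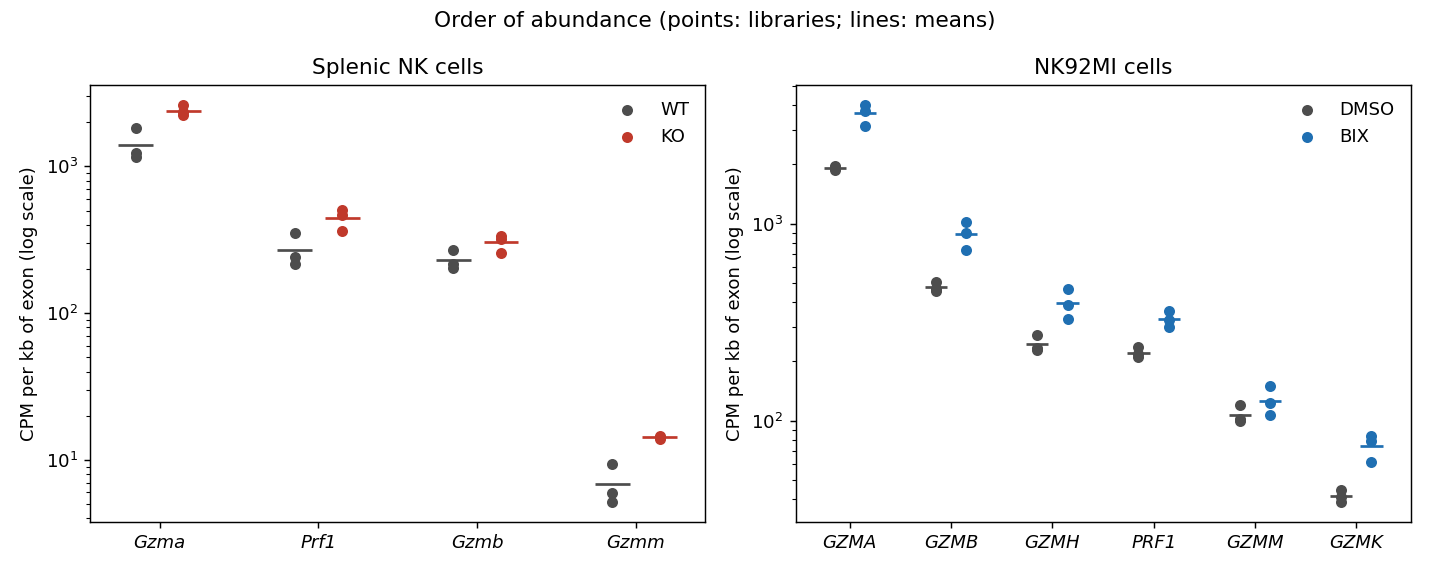
CPM per kb of exon on a log scale for each member, in WT and KO splenic NK cells (left) and in DMSO and BIX NK92MI cells (right). Points are libraries and short lines are means. Gzma and GZMA stand highest, at 1408 CPM per kb in WT and 1924 in DMSO, and Gzmm and GZMK lowest.

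Some genes followed a member closely over the 6 libraries of a species, by the root mean square difference of centred log2 CPM. They were picked as the nearest of the 13189 mouse or 12727 human genes tested, so close values were bound to turn up. Shared regulation was not tested. For Prf1 the nearest genes were Cuedc1 (0.0382), Spry2, Zfp579, Nlrc3 and Ddx43 (0.0550). For Gzmb they were Nab2 (0.0576), Jmjd6, Mfng, Pim1 and Chkb (0.0776). PRF1 was most like LTA (0.0365), which encodes lymphotoxin alpha, then RHBDD2, GPR108, TNIP2 and ZDHHC24 (0.0434). Genes close to GZMB included STAC3 (0.0342), FTL, the chemokine gene CCL4 and HLA-B (0.0422). Among the members GZMA and GZMB were closest (0.0525) and GZMM differed most from the others (0.186 to 0.353). In mouse, Gzma and Gzmm were closest (0.202) and Gzmb and Gzmm farthest apart (0.405).

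The members lie in 4 places of the genome in mouse and 4 in human. Of the other genes within 250 kb of a mouse member, 37 were tested, and by the second rule 2 were higher (Pald1 and Cdc20b) and 3 lower (Ctsg, Palm and Plppr3), where 4.44% and 7.43% of all genes were, with a median log2 fold change of 0.0059 against 0.01 for all genes. Near the human members 23 were tested, of which 4 were higher (CDC20B, CBLN3, KHNYN and BSG) and 6 lower, where 18.4% and 18.4% of all genes were, with a median of −0.05 against −0.0083. Cdc20b, 2630 bases from Gzma, had a log2 fold change of 1.08 (edgeR adjusted p = 0.0280), and CDC20B, 2719 bases from GZMA, was at 4.26 CPM in DMSO and 6.57 CPM in BIX (0.63, edgeR adjusted p = 0.0206). These names were chosen after their values were seen.

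The other parts of the granule pathway changed unevenly. Macrophage and monocyte markers summed to 2529 to 6447 CPM in WT and 1364 to 2471 CPM in KO. The part of such cells in the lower and the higher mouse genes of the lists below was not tested. Over 7 lists (granule matrix and membrane, processing and sorting, inhibitors, exocytosis, transcription factors, cytokine receptors and NK surface genes), 64 mouse genes were tested, of which 13 were higher and 7 lower by the second rule (4.44% and 7.43% of all genes). In human 20 of 60 were higher and 9 lower (18.4% and 18.4% of all genes). These shares over all genes also apply to the counts of each list below. Scaled to NK surface genes, the mouse lists, which include the genes used for scaling, held 0 higher and 30 lower genes. On that scale 40 and 8343 of all 13189 genes passed. The mouse list counts moved with those over all genes. Without WT replicate 2 they were 33 and 16, with 1433 and 2097 of 13411 genes passing in all. Without WT replicate 1 they were 1 and 0 (35 and 64 in all), without WT replicate 3 they were 0 and 0 (6 and 8 in all), and without KO replicate 2 or 3 no gene passed at all. Without CON-1, CON-3 or BIX replicate 1 the human count of lower genes was 4, 5 and 4 (1799, 1822 and 1641 in all, against 2344 with every library).

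Among genes of the granule matrix and membrane, 1 of 7 was higher and 2 were lower in KO, at a median log2 fold change of −0.49 (0.01 over all genes). Nkg7, a granule membrane protein needed for full release, went from 599 to 1065 CPM (0.83, adjusted p = 0.0440). Lamp1, the degranulation marker CD107a, fell from 526 to 352 CPM and Mpeg1, a perforin-like protein known from macrophages, from 747 to 278 CPM. In BIX cells 5 of 7 rose and none fell, with a median of 0.43. These were SRGN, the proteoglycan that packs granzymes (553 to 846 CPM, log2 fold change 0.61, edgeR adjusted p = 1.27e-05), CD63, LAMP2, GNLY, which encodes the pore-forming granulysin (542 to 733 CPM), and NKG7 (1149 to 1392 CPM, 1156 CPM in BIX replicate 2). The overall median was −0.0083 in human.

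Genes that process and sort granzymes were mixed in direction. In KO Ctsw, a cathepsin of cytotoxic cells, was higher (422 to 806 CPM, log2 fold change 0.93) and Sort1 and Ctsl were lower, so that 1 of 11 was higher and 2 lower (median 0.0027). Of 10 tested in human GNPTAB alone, which tags enzymes for the mannose 6-phosphate route, passed, and it was lower (581 to 499 CPM, list median −0.04). Inhibitors included Serpinb9 and SERPINB9, which block granzyme B within the killer cell and were higher in both experiments, from 140 to 237 CPM in mouse (log2 fold change 0.76, edgeR adjusted p = 0.0279) and from 129 to 233 CPM in human (log2 fold change 0.86, edgeR adjusted p = 4.63e-07). Cst7, the cystatin that restrains cathepsin C, and Serpinb9b were also higher in KO, and Serpinb6a and Serpinb1a lower, so that 3 of 7 mouse inhibitors were higher and 2 lower (median 0.46). SERPINB9 was the one of 4 human inhibitors to pass (median 0.18).

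Among exocytosis genes, of 10 tested in mouse none was higher and Snap23 was lower (124 to 87.7 CPM). In human STX11, a membrane fusion protein, was higher (174 to 286 CPM, edgeR adjusted p = 3.73e-06), and UNC13D, the priming factor Munc13-4, was lower (37.5 to 24.8 CPM, edgeR adjusted p = 2.84e-04). The medians were −0.09 over the 10 mouse genes and 0.0031 over the 11 human genes tested.

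Of 10 transcription factors known to act on these genes, Tbx21 (T-bet) alone was higher in KO by the second rule (339 to 632 CPM, log2 fold change 0.90, edgeR adjusted p = 0.0368), and none was lower (median 0.34). In BIX cells RUNX3 (247 to 386 CPM), ZEB2 and PRDM1 were higher, and STAT5B, TBX21 (232 to 168 CPM, log2 fold change −0.46, edgeR adjusted p = 7.61e-05) and EOMES were lower (median 0.10). T-bet thus had opposite signs in the 2 experiments, a difference that was not tested. Among 9 cytokine receptor genes, Il2rg alone was higher in KO (326 to 452 CPM, list median 0.66), and 5 were higher in BIX, with the smallest adjusted p for IL2RA, the high-affinity chain of the IL-2 receptor (151 to 280 CPM, log2 fold change 0.89, edgeR adjusted p = 3.11e-07), and the largest log2 fold change for IL18RAP (0.92), together with IL2RG, IL18R1 and IL15RA, while IL12RB2 and IL2RB were lower (median 0.28). Of the NK surface genes, 6 of 11 were higher in KO and none lower (median 0.77), among them the receptor genes Cd160 (79.6 to 167 CPM), Cd244, Klre1 and Klrk1. In BIX 4 of 10 were higher, among them KLRD1 and NCR3, and 3 were lower, KLRC1, NCR1 and IL2RB (median 0.09).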

How the data were processed

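RNA-seq of 6 mouse and 6 human libraries was used. According to the sources, reads were trimmed with fastp 0.23.4, aligned with STAR 2.7.11b to the mouse (GRCm38) or human (GRCh38) genome with up to 2 mismatches, and assigned to genes with HTSeq 2.0.3. The authors deposited unnormalized counts, 1 row a symbol. The annotation release and strand setting are not given in the sources used here. Positions and exon lengths came from GENCODE annotations of the same builds.

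Each species was fitted apart in R 4.3.3 with edgeR 4.0.16 (TMM, filterByExpr, quasi-likelihood test, Benjamini-Hochberg adjustment), testing 13189 mouse and 12727 human genes. The thresholds were those of the study, which used DESeq2. Standard errors are the log2 fold change divided by the square root of F. Log2 CPM used a prior count of 2, and seed 1 was set. The human control columns are named CON and could not be tied to single DMSO samples, so they entered as a group. Alternatives were DESeq2 1.42.0, limma-voom (limma 3.58.1), other scalings and filters, and each library left out. The ratio of each member to the NK surface genes was added after seeing the data. The procedure was tested on simulated counts. No 2 libraries agreed within sampling noise (chi-square per degree of freedom 2.81 to 76.6). Intervals and floors (3 counts a library) cover counting error only.

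The members and gene lists were chosen with earlier results of these data known. Named genes are all members, the other granzymes, the targeted gene, list genes with an adjusted p under 0.05 (at most 4 a direction), and the 5 genes most like Prf1, PRF1, Gzmb and GZMB. NKG7, IL15RA, CD3E, CD4, mouse Il2rb and the neighbouring genes were named after their values were seen. A few genes that the rule selects are not reported here. Of the 6 human members, GZMK and GZMM had no promoter printed. The chromatin profiles of the study were not analysed here.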

Additional observations from a re-analysis of the deposited data

How the results depend on the processing

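Over all genes, edgeR called 0 higher and 0 lower in mouse, against 401 and 1098 by DESeq2, 20 and 14 without a filter, 3 and 0 by limma-voom, 19 and 2908 scaled to NK surface genes, and 417 and 746 without WT replicate 2. In human the scaling to NK surface genes gave 588 and 1220 in place of 794 and 691. All 10 members kept a positive log2 fold change under DESeq2's size factors, library totals, other filters, DESeq2, limma-voom and each library left out. With DESeq2, Prf1 (0.72), Gzma (0.76) and Gzmm (1.06) were called, so 3 mouse members in place of 0, and the mouse pathway lists held 27 higher and 15 lower genes. With an adjusted p under 0.05 as the rule, Gzma (0.77) and Gzmm (1.07) passed, 2 members. Scaling to NK surface genes moved the median of all mouse genes to −0.76. Prf1 (−0.0059, SE 0.21) and Gzmb (−0.33, SE 0.23) were then not distinguishable from 0 and stood 0.75 and 0.43 above that median, and their ratios to those genes were −0.039 and −0.36 (log2). On this scale the mouse lists held 0 higher and 30 lower of 64 genes, against 40 and 8343 of all 13189, and PRF1 (0.46) was no longer called. As ratios to those genes, where 3 libraries a group cannot reach p under 0.05, the log2 differences were 0.54 for PRF1, 0.89 for GZMA, 0.86 for GZMB, 0.66 for GZMH and 0.83 for GZMK. Leaving out each library gave 0.59 to 0.96 for Prf1, 0.65 to 1.01 for Gzma, 0.89 to 1.36 for Gzmm, 0.49 to 0.64 for PRF1, 0 to 3 called mouse members, 0 to 33 higher and 0 to 16 lower mouse list genes, 4 to 10 lower human list genes (5 without CON-3), and −0.24 to 0.10 for the difference between Gzma and GZMA, which was positive only without WT replicate 2. Without division by length PRF1 ranked 3 and GZMH 4 among the members. Causes of these shifts were not tested. Each alternative differs from the main fit in its samples, scale, filter, call rule, use of length or model.

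Same-numbered WT and KO libraries did not deviate together throughout (correlation of deviations 0.28, 0.35 and −0.19 for replicates 1, 2 and 3). Differently numbered libraries ranged from −0.44 to 0.28. With 3 libraries a group these values cannot decide whether the numbers pair the libraries. With the replicate block, Prf1 (0.74) and Gzmm (1.11) were called, 2 mouse members, and 237 genes in all were called higher and 582 lower. No paired analysis was possible for the human libraries because the control columns carry no replicate numbers.

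The scarcest member had 284 counts or more in each library. WT replicate 2, without which the mouse calls appear, also had the lowest depth (25891680 counts). Of the WT libraries it had the highest NK surface sum (5693 CPM) and the highest mast cell and basophil sum (193 CPM). Its sums were the lowest in WT for T cell (155), B cell (534), macrophage and monocyte (2529), neutrophil (66.6) and erythroid (211 CPM) markers. The parts of depth and of these sums in the mouse calls were not tested. The number of libraries, 3 a group, limits the precision.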
